A study of Mus musculus with 18 samples.

Results

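The RNA levels of 32 genes for fatty acid uptake and beta-oxidation, all described as targets of the nuclear receptor PPARα, were followed in mouse liver across a riboflavin-deficient diet and fenofibrate. They were chosen by gene name from 54532 genes, and all 32 were listed in the deposited tables. Their 5 roles were uptake, binding and activation of fatty acids (7 genes), the carnitine shuttle (5), mitochondrial beta-oxidation (6), peroxisomal beta-oxidation (11), and regulators and other targets (3). Each gene was given 1 role, and the peroxisomal role also holds genes of transport and peroxisome division, such as Abcd2 and Pex11a. No gene of ketone body synthesis was among the 32, so 6 ketogenic genes were followed beside them. All 32 passed the filter on low values (a mean FPKM of at least 0.5) in every comparison.

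Fatty acids enter the hepatocyte with the help of CD36 and the fatty acid transport proteins, are held by the binding protein FABP1, and are joined to coenzyme A by acyl-CoA synthetases. Carnitine carries long acyl chains into mitochondria, where they are cut by repeated rounds of beta-oxidation, while peroxisomes shorten very long chains with their own set of enzymes. In fasting, fatty acids bind PPARα, which pairs with RXR on direct repeats in DNA and raises genes at each of these steps. The first step of each round uses an FAD enzyme, and FAD is made from riboflavin (vitamin B2).

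Ctrl and B2D were wild-type male C57BL/6J mice, 5 in each group, that received a control or a riboflavin-deficient diet for 1 month. Ctrl+FF and B2D+FF were also wild-type male mice of that strain, 4 in each group. They received the same diets for 9 wk with daily gavage of fenofibrate (FF), a PPARα agonist, in weeks 7 to 9. Diets began at 1 month of age, all mice were fasted overnight, and those given FF received a last dose 2 h before harvest. None of these groups had FF with the shorter diet or the longer diet without FF, and the groups with and without FF are in separate tables. Fenofibrate, gavage, age at harvest, time on diet and table therefore cannot be told apart.

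Each of the 18 mice gave 1 library of liver mRNA, with between 15320729 and 21898502 reads on genes. Levels are FPKM, fragments per kilobase of gene adjusted for library size, scaled by the authors within each table. The 32 genes took from 2.20% to 2.68% of the reads on genes in Ctrl, from 2.27% to 3.18% in B2D, from 4.66% to 5.96% in Ctrl+FF, and from 4.88% to 6.23% in B2D+FF. The summed level of 6 hepatocyte markers was 32070 to 41780 FPKM in Ctrl, 31600 to 46230 in B2D, 20970 to 24210 in Ctrl+FF, and 19100 to 22040 in B2D+FF. Such a sum follows its most abundant genes. In B2D+FF against Ctrl+FF, 4 of the 6 markers had estimates above 0 and 2 below. Of 14 genes listed as higher in male liver, 12 of 14 tested fell in B2D and 9 of 13 tested in B2D+FF, at a limma adjusted p under 0.05. Of 14 listed as higher in female liver, 7 passed the filter without fenofibrate, and 4 rose in B2D at the same threshold. With fenofibrate 6 passed the filter, and 2 rose in B2D+FF. The filter took the mean over both diets, so a gene could pass it through the group where it was high. The shares of the female list are therefore no test of a rise. Of all genes tested at that threshold, 1.94% fell and 0.769% rose in B2D, and 2.21% fell and 2.24% rose in B2D+FF. The summed level of the male list was between 998 and 2443 FPKM in B2D, against 6741 to 12110 in Ctrl. In bulk tissue, fewer cells of a type, less RNA per cell and a change of the marker genes themselves cannot be told apart. The part of these lists in the results below was not tested.

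PPARα with RXR is known to bind a direct repeat of AGGTCA spaced by 1 base, called DR1, which other nuclear receptors also bind. Promoter windows of RefSeq, from 250 bases before to 50 bases after a gene's start on GRCm38.p6, were given for 26 of the 32 genes in 31 windows. None was given for Crat, Vnn1, Abcd2, Hsd17b4, Acaa2 and Decr1. Both strands were searched for AGGTCA repeated in the same orientation after 1 base of any kind, with up to 2 mismatches in the repeat. A match was found in 4 genes, or 12.9% of their windows, against 3.86% of all 32851 windows. The matches are shown because 3 of the 4 genes (Fabp1, Cd36 and Slc25a20) handle fatty acids ahead of beta-oxidation, and the fourth (Creb3l3) is a transcription factor. Positions are counted from the RefSeq start of the window. In all 4 genes this start lies downstream of the gene start in the deposited tables, so the Cd36, Creb3l3 and Slc25a20 matches lie inside the gene as those tables bound it, and the Fabp1 match lies just before it. Capitals mark the 13 bases of the match, and each line reads 5′ to 3′ on the gene's strand. The Fabp1 match has 1 mismatch and lies from base -67 to base -55 from the RefSeq start, on the opposite strand (chr6:71199792-71199844, plus strand).
Fabp1: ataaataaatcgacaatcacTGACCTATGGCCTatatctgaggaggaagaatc
The Cd36 match has 2 mismatches and lies from base -63 to base -51, also on the opposite strand (chr5:17835927-17835979, minus strand).
Cd36: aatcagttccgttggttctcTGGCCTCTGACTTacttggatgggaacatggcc
The Creb3l3 match has 2 mismatches and lies from base -209 to base -197 (chr10:81092768-81092820, minus strand).
Creb3l3: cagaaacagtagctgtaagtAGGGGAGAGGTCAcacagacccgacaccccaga
The Slc25a20 match has 2 mismatches and lies after the RefSeq start, from base 6 to base 18 (chr9:108662134-108662162, plus strand).
Slc25a20: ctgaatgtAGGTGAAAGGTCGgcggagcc
A stricter search, for AGGNCA repeated after 1 base without mismatch, left Fabp1 alone, against 0.381% of all windows. A match describes these letters only, and the absence of a match says nothing of binding elsewhere.

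The 32 genes spanned more than 3 orders of magnitude in the plot of levels by mouse. In Ctrl, the highest mean levels were those of Fabp1 (5269 ± 1189 FPKM, SD, n = 5), Acaa1b (1371 ± 223.6) and Ehhadh (936 ± 250.1), and the lowest those of Pdk4 (4.62 ± 2.00) and Abcd2 (6.22 ± 2.52). The coefficient of variation between mice of a group had a median over the 32 genes of 12.7% in Ctrl, 15.7% in B2D, 10.2% in Ctrl+FF and 15.9% in B2D+FF. Some mice were the highest or lowest of their group for many of the 32 genes. B2D+FF mouse 4 had the highest level of its group in 27 of the 32 genes and B2D+FF mouse 2 the lowest in 26. Ctrl+FF mouse 2 was highest in 20 and Ctrl+FF mouse 3 lowest in 22. In B2D, mouse 4 was highest in 18 and mouse 1 lowest in 13, and in Ctrl, mouse 5 was highest in 14 and mouse 3 lowest in 15. The same ranks were not counted over all genes, so the counts do not set these genes apart.

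**Figure D1:**
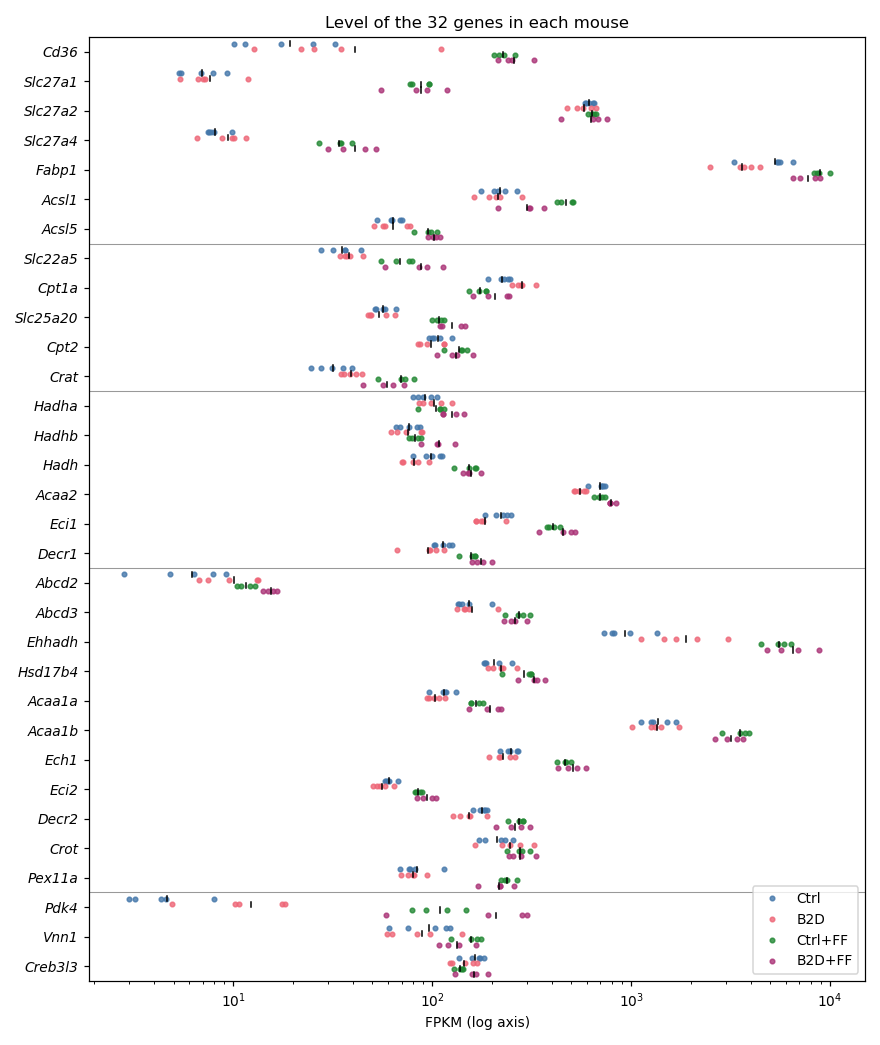
FPKM of the 32 genes in each mouse on a log axis, grouped by role from uptake (top) to regulators (bottom), with 1 point per mouse and a black tick at the group mean. Cd36, Slc27a1, Slc27a4, Ehhadh and Pdk4 show gaps between the groups with and without fenofibrate, and Cpt1a lies lower with fenofibrate.

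The first comparison asked whether the riboflavin-deficient diet changed these genes without fenofibrate. None of the 32 passed an adjusted p of 0.05 (limma on log2(FPKM + 1), Benjamini-Hochberg over 11574 genes), while 2.7% of all genes tested did (1.94% lower and 0.769% higher). At an unadjusted p under 0.05 there were 8, with Fabp1, Hadh and Acaa2 lower in B2D and Cpt1a, Crat, Abcd2, Ehhadh and Pdk4 higher, against 18.4% of all genes (10.1% lower and 8.24% higher). The estimates were lower in 19 and higher in 13, with a median log2 fold change of -0.04, beside -0.0013 over all genes and -0.11 over the 849 genes with a mean of at least 50 FPKM. The diets did not overlap for 2 genes, Acaa2 and Cpt1a, where 4.98% of all genes tested did not. Pdk4 and Ehhadh came closest to the threshold, and both passed it under limma voom on the recovered reads.

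Pdk4 encodes the kinase that shuts down pyruvate dehydrogenase in fasting (chromosome 6, 5483351 to 5496309, minus strand, GRCm38). Its FPKM was 3.20, 4.60, 4.33, 2.97 and 7.97 in Ctrl mice 1 to 5 and 17.5, 18.2, 10.7, 10.2 and 4.91 in B2D mice 1 to 5. B2D mice 1 to 4 lay above every Ctrl mouse, and B2D mouse 5 lay below Ctrl mouse 5. The log2 fold change was 1.19 (SE 0.312), a 2.28-fold higher level in B2D, with an adjusted p of 0.0687. Without B2D mouse 5 the adjusted p was 0.0186 and the log2 fold change 1.45. Over every library left out in turn, the limma adjusted p lay between 0.0186 and 0.178 and the log2 fold change between 1.03 and 1.45.

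Ehhadh, the bifunctional hydratase and dehydrogenase of peroxisomal beta-oxidation (chromosome 16, 21761287 to 21787807, minus strand), was the most abundant peroxisomal member after Acaa1b in Ctrl. It had 983, 816.5, 800.2, 728.5 and 1351 FPKM in Ctrl and 1469, 1679, 3072, 2152 and 1116 in B2D. All but B2D mouse 5 lay above the Ctrl mice. The level was 1.96-fold higher in B2D (log2 fold change 0.97, SE 0.255, limma adjusted p = 0.0701). Among the other peroxisomal genes, Abcd2, a transporter of very long acyl chains into the peroxisome, had an estimate of 0.64 (SE 0.263, adjusted p = 0.218). The remaining 9 lay between -0.24 (Decr2) and 0.19 (Crot).

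Acaa1a and Acaa1b encode the peroxisomal thiolases, which release acetyl-CoA at the end of a round. They are near-identical copies: 21.2% of the 100-base windows in Acaa1a transcripts and 30.5% of those in Acaa1b also occur in the other gene, so the split of reads between them is uncertain. Acaa1a had 113.8, 115.3, 131.2, 117.4 and 95.8 FPKM in Ctrl and 102.5, 108.1, 96.1, 116.1 and 94.1 in B2D. Acaa1b had 1677, 1253, 1121, 1283 and 1519 FPKM in Ctrl and 1258, 1407, 1731, 1325 and 1007 in B2D. The diets overlapped for both copies. The log2 fold changes were -0.15 (SE 0.109) for Acaa1a and -0.03 (SE 0.159) for Acaa1b, and -0.05 (SE 0.140) for the reads of both together.

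Of the 6 mitochondrial members, 5 had estimates below 0, and the median log2 fold change of the diet was -0.26. With quantile normalization 4 were below 0 and the median was -0.08. Acaa2, the mitochondrial thiolase of the last step (chromosome 18, 74779197 to 74806207, plus strand), separated the diets. Its FPKM was 711, 739, 609, 718 and 702 in Ctrl and 590.4, 524.6, 547.7, 576.2 and 513.9 in B2D. Every B2D mouse lay below every Ctrl mouse, as for 2.89% of all genes tested. The log2 fold change was -0.34 (SE 0.0989, limma adjusted p = 0.1004), and the estimate was -0.06 with quantile normalization. The other estimates were -0.29 for Hadh, which oxidizes the hydroxyacyl intermediate, -0.26 for Eci1, -0.25 for Decr1 and -0.02 for Hadhb. Hadha, the partner of Hadhb in the trifunctional protein, had 0.14.

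In the carnitine shuttle, Cpt1a, the outer membrane transferase that limits entry of long chains into mitochondria, separated the diets in the other direction (chromosome 19, 3323301 to 3385732, plus strand). It had 238.9, 190.9, 244.6, 230.2 and 221.0 FPKM in Ctrl and 252.0, 278.3, 283.5, 332.4 and 268.7 in B2D. All 5 B2D mice lay above all Ctrl mice, as for 2.08% of all genes tested. The log2 fold change was 0.33 (SE 0.111, limma adjusted p = 0.1499). Crat, the carnitine acetyltransferase, had 0.31 (adjusted p = 0.242), Slc22a5, the carnitine importer, 0.13, Slc25a20, the carnitine carrier of the inner membrane, -0.08, and Cpt2 -0.11.

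The uptake and activation genes had estimates near 0 except for Fabp1 and Cd36. Fabp1 (chromosome 6, 71199827 to 71205023, plus strand) had 5634, 5412, 3298, 6524 and 5479 FPKM in Ctrl and 3679, 3985, 4450, 2495 and 3516 in B2D. Ctrl mouse 3 lay among the B2D mice, and the other 4 Ctrl mice lay above all of them. The log2 fold change was -0.53 (SE 0.200, limma adjusted p = 0.186). Cd36 (chromosome 5, 17781690 to 17888801, minus strand) had 17.3, 11.4, 10.01, 24.98 and 32.5 FPKM in Ctrl and 12.7, 25.5, 34.8, 110.3 and 21.9 in B2D. The groups overlapped, and B2D mouse 4 alone lay far above the rest. Its log2 fold change was 0.78 (SE 0.486, limma adjusted p = 0.410), and 0.33 without B2D mouse 4.

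Cd36 is also a gene of fat cells, and of female liver in the mouse. The 5 adipocyte markers summed to 0.365 FPKM in B2D mouse 4, with the defining marker Adipoq at 0.0746, and to 37.1 in B2D mouse 2, where Cd36 was 25.5. Over the other 3 B2D mice and all Ctrl mice that sum was between 0.114 and 0.784. Whether fat cells or female-biased expression had a part in the Cd36 levels was not tested. Slc27a1, Slc27a2, Slc27a4, Acsl1 and Acsl5 lay between -0.11 and 0.17. The last of the roles held Vnn1, a pantetheinase, at -0.13 and Creb3l3, a fasting-induced transcription factor of the liver, at -0.19.

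**Figure D2:**
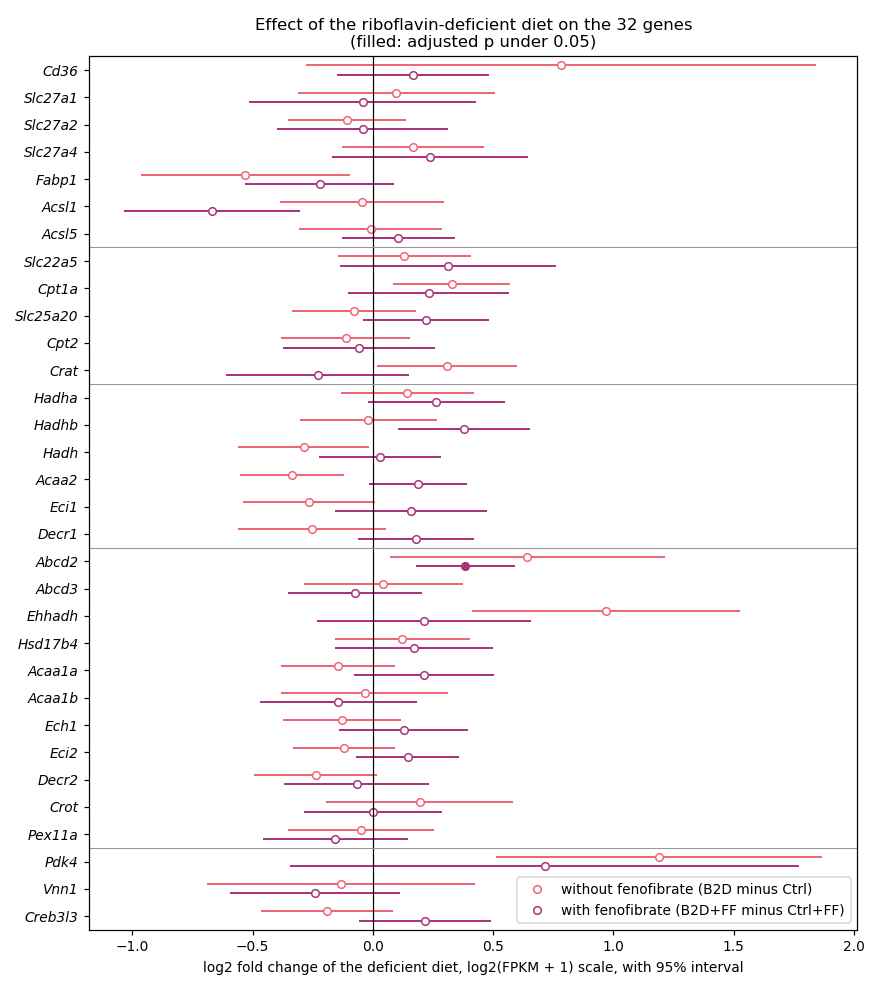
Log2 fold change of the riboflavin-deficient diet with its 95% interval for each of the 32 genes, without fenofibrate (light) and with it (dark), where filled points passed an adjusted p of 0.05. Abcd2 with fenofibrate is the single filled point, Pdk4 and Ehhadh have the highest estimates without fenofibrate, and Acsl1 the lowest with it.

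The second comparison asked the same of the diets in mice that received fenofibrate. One gene of 32 passed the threshold, Abcd2, higher in B2D+FF, where 4.45% of 11878 genes tested did (2.24% higher and 2.21% lower). The estimates were higher in 21 genes and lower in 11, with a median log2 fold change of 0.15, beside 0.01 over all genes and 0.05 over the 979 genes with a mean of at least 50 FPKM. At an unadjusted p under 0.05 there were 3 (Abcd2, Hadhb and Acsl1), against 21.2% of all genes (9.93% lower and 11.3% higher). The groups did not overlap for 4 genes, Acsl1 lower and Hadhb, Acaa2 and Abcd2 higher, where 14.3% of all genes tested did not (6.44% lower and 7.82% higher).

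Abcd2 (chromosome 15, 91145871 to 91191799, minus strand) had 12.9, 10.9, 10.4 and 12.1 FPKM in Ctrl+FF and 14.1, 16.6, 15.0 and 15.9 in B2D+FF. The 4 B2D+FF mice lay above the 4 Ctrl+FF mice. The level rose 1.31-fold (log2 fold change 0.38, SE 0.0914, limma adjusted p = 0.0485). That call did not hold when any of the 8 libraries was left out, with adjusted p between 0.0623 and 0.149, nor with upper-quartile rescaling or quantile normalization. Without fenofibrate, Abcd2 had 6.32, 4.81, 2.83, 7.91 and 9.22 FPKM in Ctrl and 6.68, 7.48, 13.1, 13.3 and 9.5 in B2D, where the diets overlapped.

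Acsl1 encodes the main long-chain acyl-CoA synthetase of the liver (chromosome 8, 46471037 to 46536051, plus strand). Its levels were 501.6, 512.1, 423.0 and 443.5 FPKM in Ctrl+FF and 308.0, 214.2, 310.5 and 366.6 in B2D+FF, so that every B2D+FF mouse lay below every Ctrl+FF mouse. The level was 0.629 times that of Ctrl+FF (log2 fold change -0.67, SE 0.162), with a limma adjusted p of 0.0520, just outside the threshold. It passed under voom on recovered reads, under upper-quartile rescaling and under quantile normalization. Without fenofibrate, Acsl1 had 214.2, 204.4, 176.4, 231.9 and 267.2 FPKM in Ctrl and 209.9, 218.9, 282.9, 193.6 and 163.0 in B2D, with a log2 fold change of -0.04. Other uptake genes lay between -0.22 (Fabp1) and 0.24 (Slc27a4).

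All 6 mitochondrial members had estimates above 0 with fenofibrate, with a median of 0.18, and 5 of 6 did with upper-quartile rescaling. Hadhb, the thiolase subunit of the trifunctional protein (chromosome 5, 30155248 to 30184593, plus strand), had 84.9, 87.8, 79.2 and 76.6 FPKM in Ctrl+FF and 107.4, 87.9, 106.1 and 130.1 in B2D+FF. B2D+FF mouse 2 lay just above the highest Ctrl+FF mouse. The log2 fold change was 0.38 (SE 0.122, limma adjusted p = 0.114). Acaa2 had 736.7, 717.4, 650.6 and 687.1 FPKM in Ctrl+FF and 780.5, 780.3, 779.3 and 838.6 in B2D+FF. Its groups did not overlap, and the log2 fold change was 0.19 (SE 0.0913, limma adjusted p = 0.276).

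Of the genes described without fenofibrate, Pdk4 had 79.4, 118.6, 92.5 and 147.7 FPKM in Ctrl+FF and 283.2, 58.4, 189.9 and 300.1 in B2D+FF. B2D+FF mouse 2 had the lowest Pdk4 of all 8 and the other 3 B2D+FF mice the highest. The log2 fold change was 0.71 (SE 0.470, limma adjusted p = 0.422), and 1.24 with an adjusted p of 0.0296 without B2D+FF mouse 2. Over every library left out in turn, the Pdk4 estimate lay between 0.46 and 1.24 and the limma adjusted p between 0.0296 and 0.658. Ehhadh had 5870, 6351, 4500 and 5485 FPKM in Ctrl+FF and 6933, 4816, 5640 and 8801 in B2D+FF, with an estimate of 0.21 (SE 0.198). Cpt1a had 186.3, 171.0, 153.3 and 187.3 FPKM in Ctrl+FF and 189.5, 159.4, 237.0 and 244.1 in B2D+FF. The diets overlapped for both, and the Cpt1a estimate was 0.23 (SE 0.149).

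Cd36 had 228.5, 261.0, 205.4 and 215.4 FPKM in Ctrl+FF and 251.8, 239.8, 214.0 and 323.8 in B2D+FF, and Fabp1 had 8608, 9986, 8334 and 8815 FPKM in Ctrl+FF and 8418, 8859, 6481 and 7074 in B2D+FF. Both overlapped between the diets, with estimates of 0.17 (SE 0.140) and -0.22 (SE 0.137). The 5 adipocyte markers summed to 6.28 to 22.8 FPKM in Ctrl+FF against 0.628 to 4.52 in B2D+FF, most of it Cfd, while Adipoq was at 2.47 in Ctrl+FF mouse 1 and at 0.128 or less in the other 7 mice. Acaa1a had 171.1, 180.3, 156.2 and 156.2 FPKM in Ctrl+FF and 220.7, 153.2, 188.1 and 215.0 in B2D+FF, and Acaa1b had 3539, 3926, 2879 and 3717 and then 3400, 2655, 3026 and 3656. The thiolase copies had estimates of opposite sign, 0.21 (SE 0.129) for Acaa1a and -0.14 (SE 0.145) for Acaa1b, and -0.11 (SE 0.141) for their reads together. Over the peroxisomal genes apart from Abcd2, estimates lay between -0.16 (Pex11a, which drives peroxisome division) and 0.21.

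The third comparison tested the difference itself, the diet effect with fenofibrate minus the diet effect without, in 1 fit of all 18 libraries. None of the 32 passed an adjusted p of 0.05, where 0.228% of 11862 genes tested did (0.101% lower and 0.126% higher). At an unadjusted p under 0.05 there were 9, 6 higher and 3 lower, against 11.9% of all genes (5.21% lower and 6.69% higher). The count of 9 became 4 with upper-quartile rescaling and 3 with quantile normalization, and 3 without Ctrl mouse 2 or without Ctrl mouse 4. At the adjusted threshold voom on recovered reads called none. Acaa2 had the smallest p of the 32. Its diet effect went from -0.34 to 0.19, a difference of 0.52 on the log2 scale (SE 0.120, limma adjusted p = 0.0784). The difference was 0.28 with quantile normalization.

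The 6 mitochondrial members all had a positive difference, from 0.12 (Hadha) to 0.52, with a median of 0.41, beside 0.01 over all genes and 0.16 over the 919 genes with a mean of at least 50 FPKM. Over the settings tried, 5 or 6 of the 6 were positive and the median lay between 0.24 and 0.49. The 11 peroxisomal members were split, with 5 positive and 6 negative and a median of -0.11. Ehhadh had -0.76 (SE 0.355, limma adjusted p = 0.414), Acsl1 -0.62 (SE 0.232, adjusted p = 0.292) and Crat -0.54 (SE 0.218, adjusted p = 0.336). Whether mitochondrial and peroxisomal members differ as groups was not tested.

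**Figure D3:**
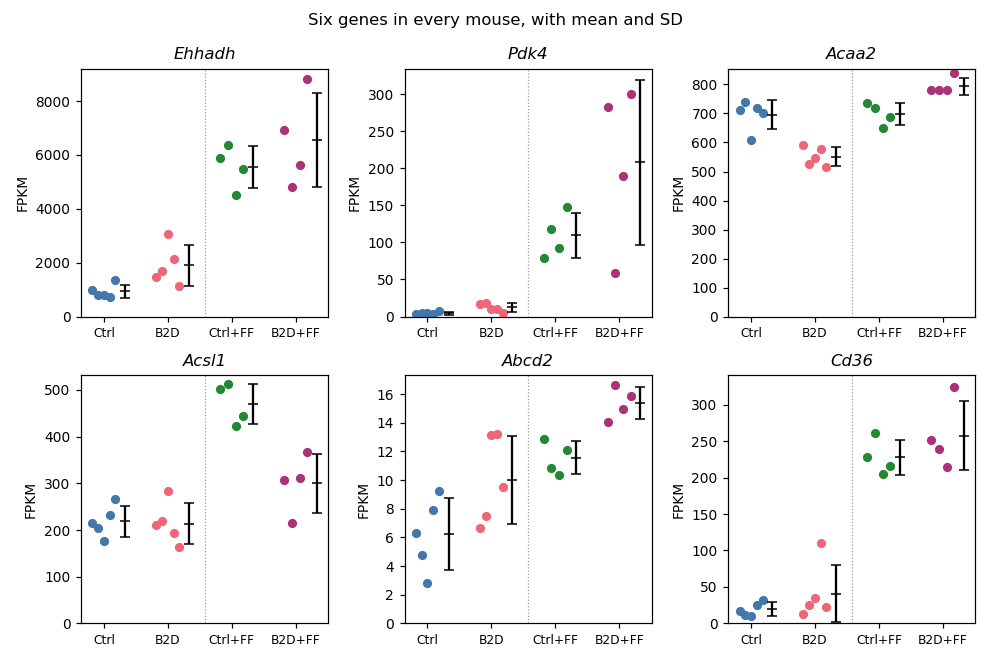
FPKM of 6 genes in every mouse by group on axes that start at 0, with the group mean and SD beside the points and a dotted line between the tables without (left) and with fenofibrate (right). The B2D points of Acaa2 lie below those of Ctrl and the B2D+FF points above those of Ctrl+FF, with no overlap in either table, and the B2D+FF points of Acsl1 lie below those of Ctrl+FF.

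Levels with and without fenofibrate were set side by side as a description, with no test, since they come from separately made tables. With the control diet, the ratio of group means, with to without fenofibrate, was above 1 for 30 of 32 genes, with a median of 1.66, beside 0.965 over all 11862 genes. It was at least 2 for 9 of them, against 8.83% of all genes. With the deficient diet it was above 1 for 31 of 32, with a median of 1.70, and at least 2 for 12, against 9.34%. None of the 32 had a ratio of 0.5 or less, where 3.89% of all genes did with the control diet and 5.23% with the deficient diet. Every mouse with fenofibrate lay above every mouse without it for 23 of the 32 genes with either diet, where 15.4% and 15.5% of all genes did.

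By role, the uptake genes had the highest median ratio, 2.15 with the control diet and 2.13 with the deficient diet. Their spread was wide: Slc27a1, a fatty acid transport protein best known from muscle and fat, was at 12.6 and 11.5, Cd36 at 11.8 and 6.27, and Slc27a4 at 4.18 and 4.36. Slc27a2, the main such protein of liver, was at 1.04 and 1.10. The level of Slc27a1 was between 5.30 and 11.8 FPKM in the 10 mice without fenofibrate and between 54.9 and 119.0 in the 8 with it.

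Pdk4 had the largest ratios of the 32 genes, 23.7 with the control diet and 16.9 with the deficient diet. In the peroxisomal group all 11 ratios were above 1 with either diet, with medians of 1.79 and 1.72. Ehhadh had 5.93 and 3.45, Pex11a 2.85 and 2.70, and Acaa1b 2.57 and 2.37, while Crot had 1.3 and 1.12. With the reads of Acaa1a and Acaa1b summed, the ratios were 2.39 and 2.30.

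The mitochondrial members had the lowest median with the control diet, 1.26, and 1.64 with the deficient diet. Acaa2 was at 1.00 with the control diet and 1.44 with the deficient diet, and Eci1, an enoyl-CoA isomerase, at 1.82 and 2.46. In the carnitine shuttle, Slc25a20 was at 1.90 and 2.35 and Crat at 2.19 and 1.52. Cpt1a went the other way, with ratios of 0.775 and 0.733. All mice with fenofibrate lay below all mice without it for Cpt1a with either diet, as for 14.8% and 12.5% of all genes, and it was the 1 member of which this was so.

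**Figure D4:**
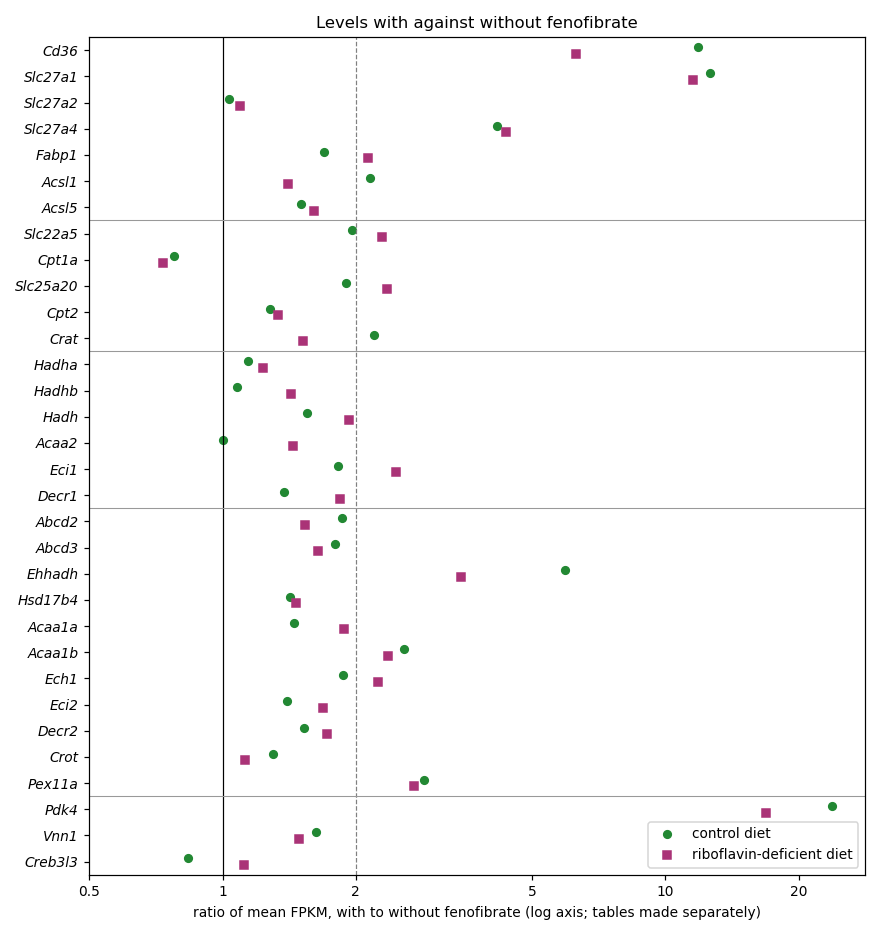
Ratio of mean FPKM with to without fenofibrate for each of the 32 genes on a log axis, with circles for the control diet, squares for the deficient diet, a solid line at 1 and a dashed line at 2. Pdk4, Slc27a1 and Cd36 lie farthest right, and Cpt1a lies left of 1 with both diets.

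The tables also differed in how many reads fell on processed pseudogenes, which are spliced copies of genes. Their share was between 0.043% and 0.0543% of reads per library without fenofibrate and between 0.346% and 0.478% with it. Of the 32 genes, Hadhb is the most exposed, since 46.0% of its 100-base windows also occur in other genes, most of them in the pseudogene Gm13910, which was singled out after its values were seen. Gm13910 had between 2.58 and 4.89 FPKM in the table without fenofibrate and between 93.7 and 153.4 in the other. With its reads added to Hadhb, the ratios of 1.08 and 1.43 became 1.35 and 1.76, and the diet effect with fenofibrate went from 0.38 to 0.36. Slc22a5 shared 13.7% of its windows, most with Slc22a21, and Slc27a2 11.1% with an antisense gene. No window was shared for 22 of the 32 genes, Acaa2, Ehhadh, Pdk4, Cd36 and Cpt1a among them. The cause of the difference between the tables was not tested.

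Of the 6 ketogenic genes, none passed the threshold for either diet comparison or for their difference. The ketogenic genes had a median ratio of 1.303 with the control diet and 1.28 with the deficient diet. Bdh1 and Slc16a6 are named after their values were seen. Bdh1, which makes beta-hydroxybutyrate, had ratios of 0.765 and 0.817. Slc16a6, a carrier of ketone bodies out of hepatocytes, lay higher with the deficient diet in both tables, without overlap. The same was so for 2.08% of all genes tested without fenofibrate and 7.82% with it. Its log2 fold changes were 0.56 (limma adjusted p = 0.228) and 0.54 (adjusted p = 0.0631), at mean levels under 2 FPKM. Slc16a6 was at 4.02 FPKM in B2D mouse 2, against 0.883 to 1.25 in the other B2D mice and 0.499 to 0.748 in Ctrl. B2D mouse 2 is also the mouse whose adipocyte markers summed to 37.1 FPKM, and a part of fat cells was not tested.

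Among 58 partner genes of the same pathways, 54 were tested without fenofibrate and 1 fell in B2D, where 1.94% of all genes did: Amacr, a racemase for branched fatty acids, by 0.50 on the log2 scale (SE 0.107, limma adjusted p = 0.0326). In B2D+FF against Ctrl+FF, 3 of 55 rose and none fell, where 2.24% of all genes rose and 2.21% fell. They were Acadl, an FAD acyl-CoA dehydrogenase (log2 fold change 0.51, SE 0.0991, limma adjusted p = 0.0239), Acsl4, a synthetase for arachidonate (0.61, adjusted p = 0.0166), and the receptor gene Pparg (0.42, adjusted p = 0.0312). Acadl had 308.6, 318.6, 296.8 and 291.3 FPKM in Ctrl+FF and 462.4, 397.5, 400.7 and 476.7 in B2D+FF, so the groups did not overlap. Of the 55 partners, 9 lay higher and 3 lower without overlap, where 7.82% and 6.44% of all genes tested did. Ppara itself had log2 fold changes of -0.03 without fenofibrate and -0.30 with it (limma adjusted p = 0.921 and 0.185).

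Between the diets, 1 of 20 other PPARα targets fell and none rose without fenofibrate, and 2 fell and 4 rose with it. Of all genes, 1.94% fell and 0.769% rose without fenofibrate, and 2.21% fell and 2.24% rose with it. Cyp4a12a, an omega-hydroxylase that male mice express more than females, fell by 1.76 in B2D and by 0.51 in B2D+FF on the log2 scale (limma adjusted p = 0.0274 and 0.0492). In B2D+FF against Ctrl+FF, the hepatokine gene Fgf21 was higher by 2.49 and the triglyceride lipase gene Pnpla2 by 0.78. The lipid droplet genes Hilpda and Cidec were higher by 1.51 and 0.97, and all 4 genes had limma adjusted p between 0.0117 and 0.0203. Fgf21 had 1.28, 3.83, 1.09 and 4.10 FPKM in Ctrl+FF and 11.3, 17.3, 12.4 and 37.9 in B2D+FF. Its mean was 2.575 in Ctrl+FF and 19.72 in B2D+FF, beside 14.99 in Ctrl and 21.06 in B2D. Cidea, another lipid droplet gene, was lower by 1.34 in B2D+FF than in Ctrl+FF (limma adjusted p = 0.0427). It had 14.8 to 23.9 FPKM in Ctrl+FF and 3.63 to 12.6 in B2D+FF. Without fenofibrate, Cidea was at 0.247 FPKM or less in every mouse but B2D mouse 2, which had 8.15. In that mouse the adipocyte markers summed to 37.1 FPKM, and whether fat cells had a part was not tested.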

How the data were processed

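The authors prepared mRNA libraries from total liver RNA, and aligned and counted the reads with STAR and featureCounts on mm10, per the labels, which also name DESeq2. They deposited 1 table of FPKM values for the groups without fenofibrate and 1 for those with it, with GRCm38 coordinates. FPKM times gene length gave whole multiples of 1 step in every library (tolerance 0.02 reads), which returned the reads, from 15320729 to 21898502 per library. Depth leaves at least 200 reads behind every value of the 32 genes. Each table had been scaled on its own, so levels between tables were given without a test.

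Each table was tested alone by limma 3.58.1 (R 4.3.3), with a trend, after log2(FPKM + 1) transformation of all genes whose mean FPKM reached 0.5, and p-values were adjusted over all genes by the Benjamini-Hochberg method (threshold 0.05). Fold changes on this scale understate low genes. The difference of the diet effects was a contrast in 1 fit of all 18 libraries. The samples of a group are separate mice by their labels. Scripts were tested on simulated data. Alternatives were a pseudocount of 0.1, no filter, a mean FPKM of at least 5, upper-quartile rescaling (75th percentile), quantile normalization, array weights, voom on recovered reads, all 4 groups in 1 fit, and each library left out in turn. The reads of near-identical copies were added together after the data were seen. Shared windows came from GENCODE M21 transcripts.

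The members and lists were chosen with earlier results of these data known. Given in full are members past the threshold, members whose groups do not overlap in a table, and Cpt1a, Acaa1a, Acaa1b, Ehhadh, Pdk4, Cd36 and Fabp1. Of the partners and other targets, those past the threshold and Ppara are named, and other genes are said to be named later. Some partner genes are not reported here. Mice are numbered within each group.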

Additional observations from a re-analysis of the deposited data

Results flagged for a closer look

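In 128 sets of values (32 genes in 4 groups) the highest or lowest mouse was set against the rest of its group, and 10 stood apart by Dixon's 95% criterion, where chance gives about 1 in 20. In Ctrl these were mouse 1 for Slc27a4 (9.87 FPKM, high), mouse 3 for Acaa2 (609, low), mouse 4 for Eci2 (67.1, high) and mouse 5 for Abcd3 (198.8, high). In B2D, mouse 4 stood apart for Slc27a1 (11.8, high), Cd36 (110.3, high) and Eci1 (234.0, high), and mouse 3 for Abcd3 (214.8, high). With fenofibrate, Ctrl+FF mouse 3 stood apart for Hsd17b4 (224.6, low) and B2D+FF mouse 4 for Acaa2 (838.6, high).

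Acaa2 also had estimates of opposite sign under the same contrast, though neither diet effect passed the adjusted threshold in the main fits. Without fenofibrate the estimate was -0.06 with quantile normalization. The median over genes with a mean of at least 50 FPKM was -0.11 without fenofibrate and 0.05 with it. All 5 B2D mice lay below all Ctrl mice, and all 4 B2D+FF mice above all Ctrl+FF mice. The difference of the diet effects was 0.52 on the log2 scale (limma, unadjusted p = 3.8e-04, adjusted p = 0.0784), so it did not pass the adjusted threshold.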

How the results depend on the processing

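Without fenofibrate, the count of members past the threshold went from 0 to 2 with a mean FPKM of at least 5, with array weights and with voom on recovered reads (Ehhadh and Pdk4 each time), and to 2 with all 4 groups in 1 fit (Acaa2 and Ehhadh). Leaving out 1 library gave 0 to 2, with Ehhadh and Pdk4 called without Ctrl mouse 5 or B2D mouse 5. With fenofibrate, the count of 1 (Abcd2) became 0 with a pseudocount of 0.1 or no filter, and 2 with a mean FPKM of at least 5, array weights or voom (Abcd2 and Acsl1). It stayed at 1 with upper-quartile rescaling, quantile normalization or all 4 groups in 1 fit, but the gene was Acsl1. Leaving out 1 library gave 0 to 3, with Acsl1, Hadhb and Pdk4 called without B2D+FF mouse 2 and Acsl1 alone without B2D+FF mouse 4. For the difference of the diet effects, the count of 0 became 1 with array weights (Acaa2), and leaving out 1 library gave 0 to 1 (Acaa2 without Ctrl mouse 3). With a filter, the number of genes adjusted over changes; otherwise the cause was not tested. Genes called over the whole table fell to 67 with no filter and rose to 731 with all 4 groups in 1 fit, from 313, without fenofibrate. Leaving out 1 library gave between 98 and 332 in place of 313, with 153, 109 and 98 without Ctrl mice 1, 2 and 4 and 161 and 148 without B2D mice 2 and 4. With fenofibrate it gave between 175 and 596 in place of 529, with 175, 188 and 242 without Ctrl+FF mice 1, 2 and 3 and 302 and 298 without B2D+FF mice 1 and 4. For the difference it gave between 17 and 66 in place of 27. The shares of all genes called move with these counts. The count of members at an unadjusted p under 0.05 lay between 5 and 10 without fenofibrate over all settings and between 2 and 13 with it (13 without B2D+FF mouse 2). Of 1888 estimates for single members under these alternatives, 76 changed sign and 0 of these were past the threshold. The median of the 32 genes without fenofibrate was 0.09 with quantile normalization, with 22 higher. Upper-quartile rescaling changed the split of all genes called with fenofibrate from 263 lower and 266 higher to 366 and 223. Scaling the reads of all 18 libraries together gave 10 members at least 2-fold higher with the control diet and 13 with the deficient diet, in place of 9 and 12. No paired analysis was possible because mice carry unique numbers and none is shared between groups.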
